A study of Rattus norvegicus with 2 samples.

Results

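Bone morphogenetic proteins (BMPs), the related growth and differentiation factor Gdf10 and secreted proteins that trap BMPs were described in single cells of the cochlear duct of neonatal rats. The 9 genes were taken by symbol from the 32623 genes of both count matrices. They are 6 ligands (Bmp2, Bmp4, Bmp5, Bmp6, Bmp7 and Gdf10) and 3 antagonists (Chrdl1, Grem1 and Nog), and all 9 were found in both libraries. The cells came from Sprague-Dawley rats with no treatment or allele named, at postnatal day 1 (P1) or day 7 (P7). There was 1 pooled droplet library per age, so age and library cannot be told apart. No p-value is given, and every interval is an exact 95% interval that covers counting error only.

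BMP ligands are secreted dimers of the TGF-β superfamily that bring type I and type II serine/threonine kinase receptors together, upon which SMAD1, SMAD5 and SMAD9 are phosphorylated and, with SMAD4, act on genes such as Id1. Antagonists such as noggin, gremlin and the chordin family bind the ligands outside the cell and keep them from their receptors. In the inner ear the pathway is known for patterning the otic vesicle and the cochlear duct, and in the surrounding mesenchyme for forming the bony capsule.

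After limits on genes, molecules and mitochondrial share, 12779 cells at P1 and 12581 at P7 were kept, with 98005495 and 93080129 unique molecular identifiers (UMIs, each a counted RNA molecule) and medians of 6565 and 6878 UMIs per cell. The labels name the cells greater epithelial ridge cells, whereas the marker genes showed a mixture. Epcam, which marks epithelial cells, had a UMI in 4.94% of cells at P1 and 4.55% at P7. Cells gated as cochlear epithelium (markers such as Epcam, Fbxo2, Tecta and Otoa) made up 2.05% and 1.72%, and 6 mesenchymal classes together 54.1% and 51.4%. The libraries shared 60 barcode sequences, which were treated as different cells. Of 17 classes gated on marker lists, 13 had at least 50 cells in both libraries and are used here. The 6 mesenchymal classes are named for their markers: Otor-high fibrocytes, Gpc3-Dcn fibroblasts and the Aldh1a2-Scara3, Ccn3-Irx3-Scg3, Penk-Col8a1-B3gat2 and Sfrp4-Dlx5-Matn4 classes, shortened below to Aldh1a2, Ccn3, Penk and Sfrp4. They changed in size, above all the Sfrp4 class with 102 cells at P1 and 1398 at P7 and the Penk class with 1119 and 337. When all cells were clustered instead of gated, most mesenchymal clusters came from 1 library: the Sfrp4 cluster held 60 cells at P1 and 2359 at P7, and the Penk cluster 1338 and 8. Cells in no class were 32.0% and 28.0% of the kept cells, and 1247 and 1598 cells lay within 0.1 of the gate.

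RNA free in the droplets gives UMIs in cells that do not make a gene. Otor, a marker of the Otor-high fibrocytes, reached 23.1% of its all-cell level in macrophages at P1 and 40.1% at P7, and 9.75% and 9.92% in glia. In endothelial cells it was at 13.0% and 39.8%. The summed level of the 6 markers of the Otor-high gate was higher at P7 in neurons too (943.6 and 2891 CPM) and in the epithelium (1365 and 2070 CPM), and lower in mural cells (2030 and 1446 CPM), so this measure of background differed between classes in size and direction. It is given beside the low levels below, and its part in them was not tested.

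The DNA just upstream of the genes is shown first, because antagonists of this pathway are often described as its feedback targets. RefSeq windows of 250 bases before the start of the gene (assembly GRCr8, whereas the counts were made on rn6) were at hand for 7 of the 9 genes, all but Bmp2 and Bmp7. They were searched for GGCGCC, a GC-rich element to which SMAD proteins bind, which reads the same on both strands. The element was in 3 of the 7 windows, those of Gdf10, Grem1 and Nog, and in 8.69% of 33469 rat windows of the same length. The 3 windows are printed 5′ to 3′ on the strand of the gene, with the element in capitals.
Gdf10: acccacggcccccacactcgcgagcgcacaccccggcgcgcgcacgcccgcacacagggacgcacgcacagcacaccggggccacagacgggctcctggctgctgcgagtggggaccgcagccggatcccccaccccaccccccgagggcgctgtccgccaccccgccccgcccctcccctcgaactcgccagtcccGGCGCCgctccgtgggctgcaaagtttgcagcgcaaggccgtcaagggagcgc
Grem1: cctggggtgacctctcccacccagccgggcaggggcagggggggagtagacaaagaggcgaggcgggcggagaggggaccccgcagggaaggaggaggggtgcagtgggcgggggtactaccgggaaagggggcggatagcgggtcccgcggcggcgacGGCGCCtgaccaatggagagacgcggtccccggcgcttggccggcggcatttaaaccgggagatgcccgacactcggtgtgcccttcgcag
Nog: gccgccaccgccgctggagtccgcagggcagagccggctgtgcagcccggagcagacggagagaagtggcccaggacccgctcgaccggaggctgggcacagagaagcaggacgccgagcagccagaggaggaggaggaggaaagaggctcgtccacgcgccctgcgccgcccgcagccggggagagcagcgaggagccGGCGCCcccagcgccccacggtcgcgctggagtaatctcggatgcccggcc
The Gdf10 window is chr16:9243262-9243511 on the plus strand, and the element begins 53 bases before the start. The Grem1 window is chr3:120978320-120978569 on the minus strand, with the element at 91 bases, and the Nog window is chr10:74627502-74627751 on the minus strand, with the element at 51 bases. These windows are rich in CpG: there were 31 CpG in that of Gdf10, 28 in that of Nog and 25 in that of Grem1, against 17 for Bmp4, 11 for Bmp6, 10 for Chrdl1 and 4 for Bmp5 and a median of 5 over all windows. A match of letters is a description of the sequence and no evidence of binding.

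Over all kept cells, 4 of the 6 ligands stood higher at P7 and all 3 antagonists stood lower. Of all genes with at least 200 UMIs in either library, 55.0% stood higher at P7. Whether the members differ from this share was not tested. Levels are given as CPM, the UMIs of a gene in every 1000000 UMIs of the same cells. The 6 ligands summed to 84.7 CPM at P1 and 133 at P7, a log2 difference (P7 to P1) of 0.65 (0.61 to 0.69). Gdf10 (27.2 and 54.7 CPM) and Bmp5 (23.7 and 42.2 CPM) made the largest parts of this sum, so it stands mainly for them. It groups RNA by gene family and is no measure of signalling. Bmp6 and Bmp7 were lower at P7. The 3 antagonists summed to 13.9 and 8.98 CPM, a log2 difference of -0.63 (-0.75 to -0.50). The median was 0.085 over the 11780 genes that reached 200 UMIs in the library with more of them. Among these genes Gdf10 lay at percentile 89.8, Bmp5 at 85.4, Bmp2 at 69.5 and Bmp4 at 68.0. Nog lay at percentile 27.7, Chrdl1 at 17.8, Bmp7 at 17.2 and Grem1 at 13.2, so the members lay within the spread of genes at large.

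Among the ligands, Bmp5, a ligand of the Bmp5/6/7 group, was at 23.7 CPM at P1 and 42.2 at P7 (2324 and 3929 UMIs), a log2 difference of 0.83 (0.76 to 0.91). Gdf10, also called BMP3B, was at 27.2 and 54.7 CPM (2664 and 5087 UMIs), a difference of 1.01 (0.94 to 1.08). Bmp2 was at 9.06 and 12.2 CPM, with 0.43 (0.30 to 0.55). Bmp4, of the same group as Bmp2, was at 12.3 and 16.2 CPM, with 0.39 (0.28 to 0.51). Bmp7 went the other way, with 12.1 CPM at P1 and 7.55 at P7 and a log2 difference of -0.68 (-0.81 to -0.54). Bmp6 was barely detected, with 38 UMIs at P1 and 15 at P7.

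All antagonists had more UMIs at P1. Chrdl1, a chordin-like protein, was at 8.75 CPM at P1 and 5.55 at P7, a log2 difference of -0.66 (-0.82 to -0.50). Grem1, which encodes gremlin, was at 2.53 and 1.41 CPM (248 and 131 UMIs), with -0.85 (-1.16 to -0.54). Nog, which encodes noggin, was at 2.60 and 2.02 CPM (255 and 188 UMIs), with -0.37 (-0.64 to -0.09). Of the 8 members that reached this minimum, 1 (Gdf10) was at least 2-fold higher at P7 and 0 were at least 2-fold lower, against 10.4% and 10.0% of the 11780 genes. The count of members past 2-fold is thus close to that of genes at large.

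**Figure D1:**
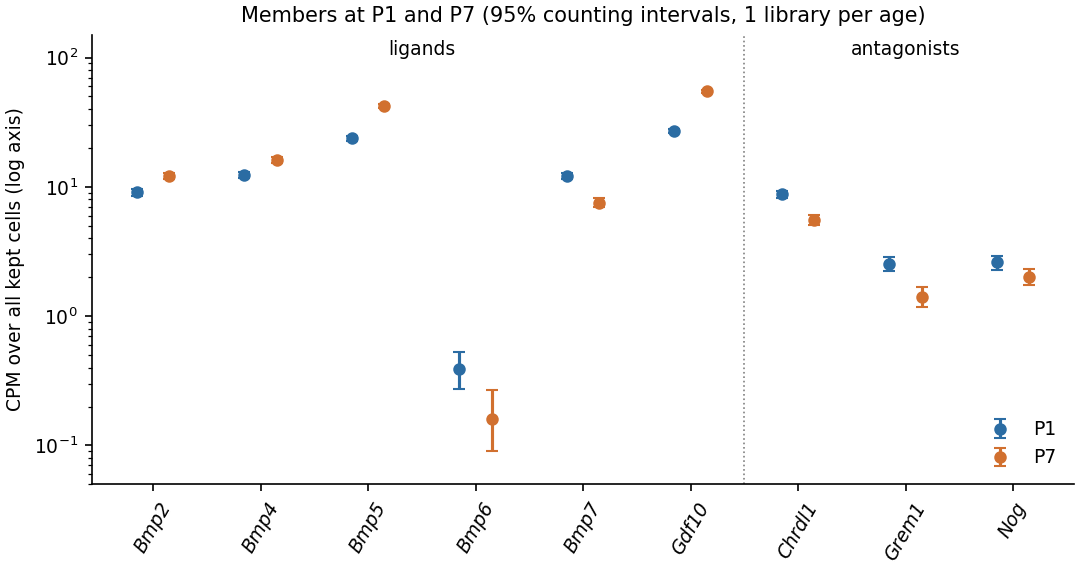
Level of each of the 9 genes over all kept cells at P1 and P7, in CPM on a log axis, with exact 95% counting intervals and 1 library per age. Bmp2, Bmp4, Bmp5 and Gdf10 lie higher at P7, and Bmp6, Bmp7, Chrdl1, Grem1 and Nog lie higher at P1.

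Shares of cells moved with the levels. With every cell thinned to 2000 UMIs, a UMI of at least 1 of the 6 ligands was in 12.9% of cells at P1 and 18.1% at P7, and a UMI of at least 1 antagonist in 2.61% and 1.58%. Unthinned, Bmp5 had a UMI in 14.5% of cells at P1 and 22.6% at P7, Gdf10 in 8.01% and 13.6%, and Bmp7 in 7.72% and 5.01%. Thinned, these shares were 4.43% and 7.74% for Bmp5, 3.85% and 6.27% for Gdf10, and 2.16% and 1.33% for Bmp7, in the same order. A ligand and an antagonist were together in 53 thinned cells at P1 and 55 at P7.

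The difference over all cells holds both changes within classes and changes in class sizes. With the class shares of P1 held fixed, the log2 difference of Gdf10 was 0.25 instead of 1.01, and with those of P7 it was 0.10. That of Bmp4 was 0.62 and 0.55 instead of 0.39. That of Bmp5 stayed near its all-cell value, at 0.85 and 0.93. Grem1 became -1.16 and -1.45 instead of -0.85, and the values of Bmp2, Bmp6, Bmp7, Chrdl1 and Nog kept their signs. For Gdf10 this rests on the gate between the Penk and Sfrp4 classes: with both taken as 1 class, a choice made after the values had been seen, its difference with fixed shares was 0.81 and 0.67. That of Bmp5 was then 0.89 and 0.93, and that of Grem1 -0.98 and -1.06.

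**Figure D2:**
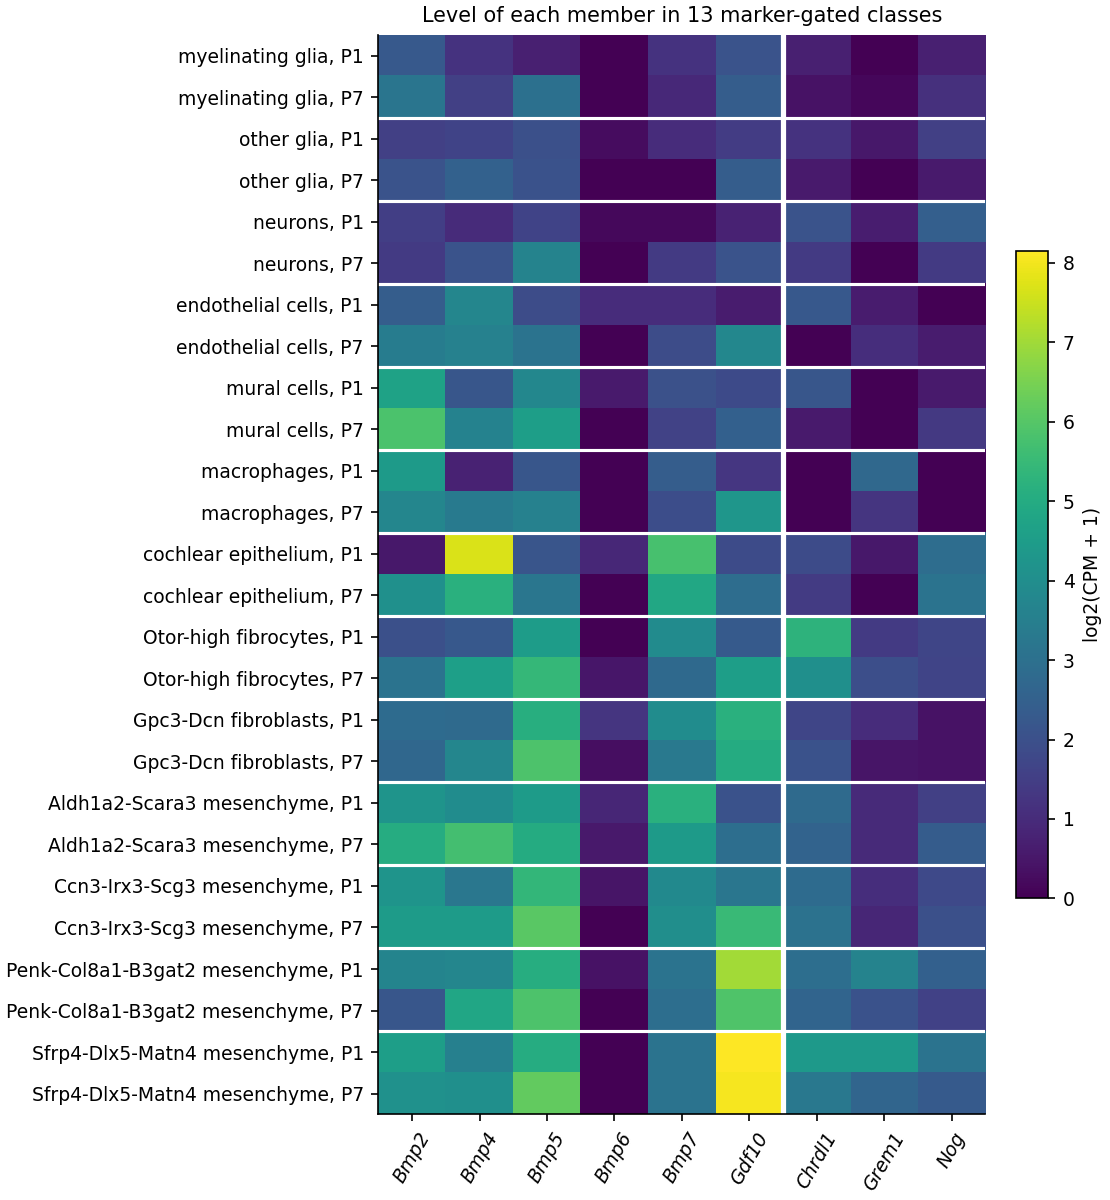
Level of each gene (columns) in the 13 classes at P1 and at P7 (lines of the map), coloured by log2(CPM + 1), with 1 library per age. Bmp4 at P1 stands out in the cochlear epithelium with 206 CPM, Gdf10 in the Sfrp4 class with 284 CPM at P1 and 264 at P7, and Chrdl1 in Otor-high fibrocytes with 37.7 and 15.6 CPM.

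Bmp4 had its highest level in the epithelium at P1 and in the mesenchyme at P7. In the cochlear epithelium it was at 206 CPM (188 to 225) at P1 and 35.2 (27.1 to 44.9) at P7. These were 476 UMIs in 52 of 262 cells and 64 UMIs in 26 of 217 cells, with at most 30 and 22 UMIs in a cell. The log2 difference was -2.55 (-2.95 to -2.17), and the share of all Bmp4 UMIs held by the epithelium was 39.5% at P1 and 4.25% at P7. Bmp4 was thus high in a minority of epithelial cells at P1, and 54.8% of its UMIs were in the 1% of cells with the most. Of 2 members with at least 50 UMIs in this class, Bmp4 was at least 2-fold lower at P7, against 6.30% of 5442 genes, whose median was 0.10.

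The epithelial cells could be split by genes of the tectorial membrane, a matrix laid down by the greater epithelial ridge and neighbouring cells. This split was chosen after the values had been seen, and it uses part of the markers of the gate. Cells with at least 3 UMIs of Tecta, Tectb, Otoa, Otog and Otogl were 181 of 262 at P1 and 180 of 217 at P7. In them Bmp4 was at 104 CPM at P1 and 21.5 at P7, and in the other epithelial cells at 478 and 126 CPM. The log2 differences were -2.27 (-2.85 to -1.74) and -1.92 (-2.52 to -1.38), so Bmp4 was lower at P7 on both sides of the split and higher in cells with few tectorial transcripts at both ages. Of the 64 UMIs of Bmp4 in this class at P7, 34 were in cells with at least 3 tectorial UMIs and 22 were in 1 cell. Counting intervals do not cover such clumping, so the contrast between the sides at P7 may rest on few cells.

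In the mesenchyme Bmp4 went the other way. Over the 6 classes together it was at 9.31 CPM at P1 and 21.4 at P7, a log2 difference of 1.20 (1.05 to 1.35), and their share of its UMIs was 42.9% at P1 and 73.9% at P7. In the Aldh1a2 class, whose first marker encodes a retinoic acid synthesising enzyme, it was at 14.5 CPM (12.1 to 17.4) and 51.4 CPM (46.0 to 57.3), a difference of 1.82 (1.52 to 2.14). A UMI of Bmp4 was in 11.2% of its cells at P1 and 33.2% at P7, against 0.775% and 1.08% in myelinating glia at median depths of 5053 and 5923 UMIs, compared with 7578.5 and 8413 in the Aldh1a2 class. Of 5 members with at least 50 UMIs there, Bmp4 was at least 2-fold higher, against 10.8% of 8760 genes. Levels in the Ccn3 class were 8.40 and 21.2 CPM, in the Penk class 12.4 and 27.6, and in Gpc3-Dcn fibroblasts 5.98 and 12.3. The Sfrp4 class, with 10.6 and 15.6 CPM, was the mesenchymal class in which the interval of the difference, 0.55 (-0.52 to 1.89), held 0. Its counts were 7 UMIs at P1 and 172 at P7.

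The highest class of Bmp4 was therefore the epithelium at P1, 3.82 (3.53 to 4.13) on the log2 scale over the next class, Aldh1a2. At P7 it was Aldh1a2, 0.55 (0.16 to 0.96) over the epithelium. In classes that are not mesenchymal, low levels of Bmp4 were also found at P7: 9.02 CPM in macrophages (13 UMIs), 10.9 in endothelial cells (20 UMIs) and 11.3 in mural cells (22 UMIs). That in macrophages was 55.8% (29.7 to 95.3) of the all-cell level, against 40.1% for Otor.

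In Otor-high fibrocytes, gated on genes such as Otor, Otos, Coch and Car3, Bmp4 was at 3.76 CPM (2.59 to 5.28) at P1 and 23.2 (19.8 to 26.9) at P7. The log2 difference was 2.62 (2.08 to 3.21), the largest for Bmp4 among the 6 mesenchymal classes. The cells with a UMI of Car3, which encodes carbonic anhydrase 3, were 97 of 1160 at P1 and 517 of 812 at P7. Car3 is itself one of the markers of this gate, and the split was chosen after the values had been seen. In cells with Car3, Bmp4 was at 25.6 CPM at P1 and 33.4 at P7, a log2 difference of 0.38 (-0.29 to 1.13). Without Car3 it was at 1.63 and 1.69 CPM, with 0.05 (-2.02 to 1.75). Within either side no difference between the ages was detectable beyond counting error, and the difference over the class went with the share of cells that had Car3.

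**Figure D3:**
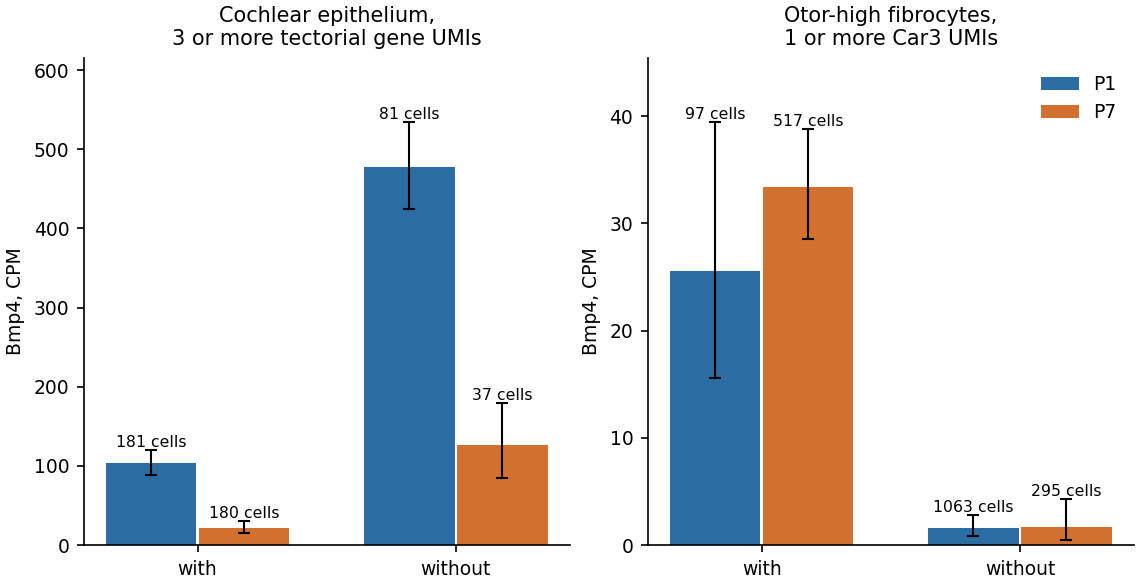
Bmp4 level in CPM (bars from 0, error bars 95% counting intervals, numbers of cells above the bars) in epithelial cells split by tectorial membrane transcripts and in Otor-high fibrocytes split by a Car3 UMI, at P1 and P7. Bmp4 is lower at P7 on both sides of the epithelial split, whereas in fibrocytes it follows Car3 at both ages, with 25.6 and 33.4 CPM in cells with Car3.

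Bmp2 was the ligand whose highest class lay outside the epithelium and the mesenchyme. In mural cells, the pericytes and smooth muscle of vessels, it was at 24.8 CPM (18.3 to 32.8) at P1 and 56.6 (46.6 to 68.3) at P7. A UMI was in 11.3% and 22.3% of these cells, and in 2.41% and 1.14% of neurons, whose median depths were 17931 and 5684.5 UMIs against 5225.5 and 5903 in mural cells. In macrophages a UMI was in 13.3% and 7.45% of cells, at median depths of 7596 and 6968.5 UMIs, so at P1 the share was not lower there than in mural cells. The log2 difference between the ages was 1.19 (0.69 to 1.71), where 6.03% of 5275 genes were at least 2-fold higher. At P7 mural cells stood 0.81 (0.47 to 1.16) above the next class, Aldh1a2. At P1 the order at the top was not separable, since the Sfrp4 class had 22.8 CPM on 15 UMIs.

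Within the mesenchyme Bmp2 followed the class. It was at 17.8 and 32.2 CPM in the Aldh1a2 class, with 0.86 (0.54 to 1.17), and at 17.7 and 21.4 in the Ccn3 class, with 0.28 (-0.07 to 0.62). In the Penk class it was at 11.9 CPM on 108 UMIs at P1 and 3.55 on 9 UMIs at P7, with -1.74 (-2.91 to -0.76). Summed with the Sfrp4 class, since different clusters held most of these classes at each age, it was at 12.6 and 14.1 CPM, with 0.16 (-0.17 to 0.50). Macrophages held Bmp2 at 20.6 CPM in 22 cells at P1 and 12.5 in 14 cells at P7, which was 227% (152 to 326) and 103% (60.8 to 162) of the all-cell level. Whether free RNA has a part in this was not tested. In the epithelium it rested on 1 UMI at P1 and 29 at P7, of which 23 were in 1 cell.

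Bmp5 was a broad mesenchymal ligand. The 6 classes together had 31.4 CPM (30.0 to 32.9) at P1 and 58.1 (56.0 to 60.2) at P7, with a UMI in 19.7% and 33.3% of cells. They held 75.1% and 76.9% of its UMIs. In macrophages a UMI was in 3.01% and 5.32% of cells, at median depths of 7596 and 6968.5 UMIs, against 7024.5 and 7545 in the mesenchyme. The level ran from 21.3 CPM in the Aldh1a2 class to 41.2 in the Ccn3 class at P1, and from 31.7 in the Aldh1a2 class to 73.1 in the Sfrp4 class at P7. It was higher at P7 in all 6 classes, with log2 differences from 0.57 (0.27 to 0.87) in the Aldh1a2 class to 1.19 (0.57 to 1.89) in the Sfrp4 class. Over the 13 classes the interval lay above 0 in 10 and below 0 in none. At P7 the Sfrp4 and Ccn3 classes were not separable, with a difference of 0.16 (-0.03 to 0.35).

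In Otor-high fibrocytes Bmp5 was at 21.8 CPM at P1 and 42.4 at P7. In contrast to Bmp4 it was lower in cells with a Car3 UMI, at 8.96 and 30.4 CPM, than in cells without, at 23.0 and 67.9. It was higher in cells with a UMI of Cldn5, at 41.9 and 77.8 CPM, than in those without, at 18.2 and 34.1. Cldn5 encodes a claudin of tight junctions, and this split was also chosen after the values had been seen.

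Bmp6 was too scarce for an account by class. Its highest level was 1.39 CPM, on 13 UMIs, in Gpc3-Dcn fibroblasts at P1. It had no UMI in 4 of 13 classes at P1 and in 10 at P7, and in the 993 cells of the other glia class at P7 a count of 0 allows up to 0.518 CPM.

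Bmp7 was highest in the epithelium and in the Aldh1a2 class, and lower at P7 in both. In the epithelium it was at 54.1 CPM (45.0 to 64.4) at P1 and 28.6 (21.3 to 37.5) at P7, a log2 difference of -0.92 (-1.42 to -0.44). A UMI was in 30.2% and 16.6% of these cells, and in 3.61% of macrophages at P1. In the Aldh1a2 class it was at 35.3 and 20.6 CPM, with -0.77 (-1.08 to -0.47). The epithelium stood above this class by 0.62 (0.30 to 0.92) at P1 and by 0.47 (-0.02 to 0.94) at P7, so that the order was separable at P1 only. Otor-high fibrocytes had 14.2 and 5.83 CPM, with -1.29 (-1.82 to -0.78), and Gpc3-Dcn fibroblasts 14.7 and 8.76. In the Ccn3 class the difference, from 13.5 to 15.3 CPM, was within counting error at 0.19 (-0.22 to 0.59). Unlike Bmp4, Bmp7 was thus not higher at P7 beyond the interval in any of the 13 classes.

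Gdf10 was concentrated in the Sfrp4 and Penk classes. The 10 leading genes of the Sfrp4 class held Runx2 at both ages and Ibsp at P7, both genes of bone-forming cells. Ibsp was also among those of the Penk class at P1. The Sfrp4 class had Gdf10 at 284 CPM (245 to 328) at P1 and 264 (255 to 274) at P7. A UMI of Gdf10 was in 34.3% and 48.1% of its cells, with up to 66 UMIs in a cell at P7. In macrophages at P7 a UMI was in 2.66% of cells, at a median depth of 6968.5 UMIs against 7382.5. The level in the Sfrp4 class did not differ between the ages beyond counting error, with a log2 difference of -0.11 (-0.32 to 0.11). This depended on how the cells were assigned: the difference was -0.35 with a stricter gate and 2.53 with clusters, where 60 cells stood for P1. The class held 7.02% of all Gdf10 UMIs at P1 and 57.1% at P7.

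The Penk class, named for the proenkephalin gene, was at 130 CPM (123 to 138) at P1 and 59.6 (50.5 to 69.9) at P7, a difference of -1.13 (-1.38 to -0.88). Its share of all Gdf10 UMIs was 44.5% at P1 and 2.97% at P7. Since different clusters held most of these classes at the 2 ages, both were also summed, a choice made after the values had been seen. Together they were 1221 cells at P1 and 1735 at P7, with Gdf10 at 141 and 226 CPM and a difference of 0.68 (0.59 to 0.77). They held 51.5% and 60.1% of its UMIs in 9.55% and 13.8% of the cells.

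Gdf10 was also higher at P7 in classes where it was low at P1. In the Ccn3 class it was at 8.25 and 45.2 CPM, a difference of 2.45 (2.12 to 2.80). In Otor-high fibrocytes it was at 3.99 and 23.0 CPM, with 2.53 (2.00 to 3.1). Gpc3-Dcn fibroblasts did not share this, with 34.8 and 31.3 CPM and -0.15 (-0.36 to 0.06). The level at P7 in macrophages, 18.7 CPM, was 34.3% (22.6 to 49.9) of the all-cell level, against 5.23% at P1, and 14 of its 27 UMIs were in 1 cell. In endothelial cells Gdf10 was at 1.98% of its all-cell level at P1 and 23.0% at P7, and in glia at 7.13% and 7.35%. The part of free RNA in the differences of the Ccn3 and Otor-high classes was not tested.

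In the Ccn3 class 2 of 6 members with at least 50 UMIs, Gdf10 and Bmp4, were at least 2-fold higher at P7, against 10.6% of 9598 genes. In Otor-high fibrocytes 3 of 6 members (Bmp2, Bmp4 and Gdf10) were at least 2-fold higher and 2 (Bmp7 and Chrdl1) at least 2-fold lower, against 14.0% and 7.13% of 8994 genes. In the Penk class 1 of 7 members (Bmp4) was at least 2-fold higher and 3 (Bmp2, Gdf10 and Grem1) at least 2-fold lower, against 8.46% and 8.18% of 8758 genes. In the Sfrp4 class 1 of 7 members (Bmp5) was at least 2-fold higher and 2 (Chrdl1 and Grem1) at least 2-fold lower, against 18.4% and 5.49% of 9316 genes. With both classes summed, Grem1 and Bmp5 kept their directions beyond the interval, at -1.30 and 1.11 (0.92 to 1.30), and so did Bmp4, at 0.54 (0.22 to 0.87). The lower values of Bmp2 and Chrdl1 did not hold, with 0.16 (-0.17 to 0.50) and 0.06 (-0.38 to 0.51), and that of Gdf10 turned to 0.68. The classes thus differed in which members moved, and the medians over the genes of these classes were 0.12, 0.17, 0.10 and 0.20.

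**Figure D4:**
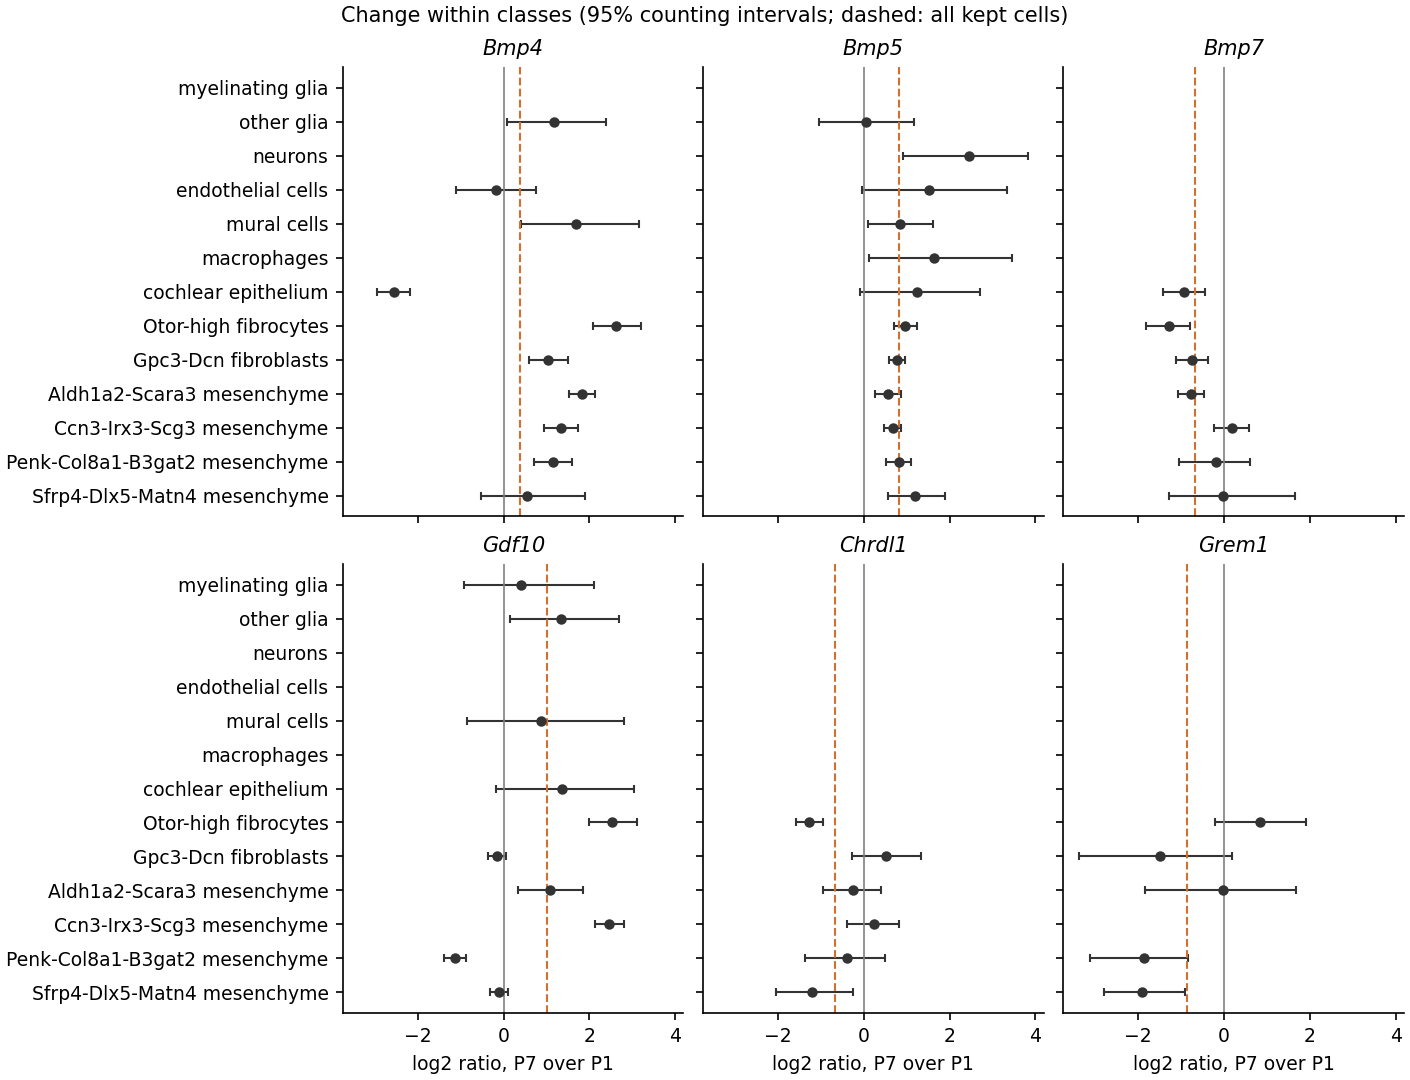
Log2 difference (P7 to P1) of Bmp4, Bmp5, Bmp7, Gdf10, Chrdl1 and Grem1 in each class with 95% counting intervals. Classes with fewer than 5 UMIs of the gene in either library are left out, and the dashed line is the difference over all kept cells. Bmp4 runs from -2.55 in the cochlear epithelium to 2.62 in Otor-high fibrocytes, whereas Bmp5 stays above 0 in the mesenchymal classes and Bmp7 mostly below.

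Of the antagonists, Chrdl1 was the one with a leading class among fibrocytes. In Otor-high fibrocytes it was at 37.7 CPM (33.8 to 42.0) at P1 and 15.6 (12.9 to 18.7) at P7, a log2 difference of -1.27 (-1.59 to -0.96). A UMI was in 23.6% and 12.3% of cells, with median depths of 6818.5 and 8881.5 UMIs. Macrophages had no UMI of Chrdl1 in 166 cells at P1 or 188 at P7, which allows up to 2.13 and 2.08 CPM. The class held 38.6% and 22.2% of its UMIs and stood 0.93 (0.14 to 1.86) and 0.87 (0.46 to 1.28) above the next class, Sfrp4, which had 19.8 CPM on 13 UMIs and 8.55 on 94. Summed with the Penk class, Chrdl1 was at 7.59 and 7.91 CPM, with no lower value at P7.

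The Car3 split separated Chrdl1 in the direction opposite to Bmp4. In cells with Car3 it was at 8.96 CPM at P1 and 11.0 at P7, and in cells without Car3 at 40.5 and 25.3 CPM. The difference between the ages in cells without Car3 was -0.68 (-1.10 to -0.28), which is smaller than over the class. The difference in cells with Car3 was 0.30 (-0.84 to 1.68). In the Ccn3, Aldh1a2 and Penk classes Chrdl1 was between 5.08 and 7.36 CPM at both ages, with intervals of the difference that held 0.

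Grem1 was highest in the same 2 classes as Gdf10. In the Sfrp4 class it was at 19.8 CPM on 13 UMIs at P1 and 5.27 on 58 UMIs at P7, a log2 difference of -1.91 (-2.79 to -0.91). In the Penk class it was at 11.4 CPM on 104 UMIs and 3.16 on 8 UMIs, with -1.86 (-3.11 to -0.83). With both classes summed it was at 12.0 and 4.88 CPM, with -1.30 (-1.76 to -0.85), and they held 47.2% and 50.4% of its UMIs. Whereas Gdf10 in this sum was higher at P7, Grem1 was lower. A UMI of Grem1 was in 5.81% of Penk cells at P1 and 3.43% of Sfrp4 cells at P7, and in none of 336 and 287 mural cells, which allows up to 1.52 and 1.54 CPM. In macrophages at P1 it had 8 UMIs, 7 of them in 1 cell.

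Nog was low throughout and spread over several classes. The epithelium was at 6.49 CPM (15 UMIs) at P1 and 7.69 (14 UMIs) at P7, and the Sfrp4 class at 7.61 (5 UMIs) and 3.91 (43 UMIs). The highest class could not be separated from the next at either age. The Aldh1a2 class, at 1.94 and 4.13 CPM, was the one in which the interval of the difference, 1.09 (0.14 to 2.09), left out 0. Neurons at P1 had 32 UMIs, or 4.50 CPM. Macrophages had none, which allows up to 2.13 CPM at P1 and 2.08 at P7.

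The highest class was at least 2-fold over the next in 2 of 8 members with enough UMIs at P1, Bmp4 and Gdf10, and 14.8% of 11357 genes were so. At P7 it was so in 1 of 6, Gdf10, and in 10.5% of 11014 genes. Cells in no class held between 7.89% and 30.6% of the UMIs of each member at P1 and between 18.3% and 40.0% at P7, so that part of each gene is not placed in a class. Dividing cells were compared within the mesenchyme, where 9.81% of cells at P1 and 7.97% at P7 had at least 2 division markers. Gdf10 was at 64.7 and 93.0 CPM in these cells and 33.4 and 83.7 in the others. Bmp5 was at 33.2 and 50.3 CPM against 31.2 and 59.1, so that both ligands were higher at P7 with and without division markers.

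The rest of the pathway was taken from lists of its ligands, antagonists, receptors, transducers and targets. Of the 19 other secreted antagonists 12 had at least 200 UMIs. Of these, 3 were at least 2-fold higher and 0 at least 2-fold lower at P7, against 10.4% and 10.0% of 11780 genes. Sostdc1, a sclerostin-domain protein, was at 29.9 CPM at P1 and 183 at P7, a log2 difference of 2.61 (2.56 to 2.67). Its highest levels were in glia, with 189 CPM at P1 and 539 at P7 in myelinating glia and 179 and 706 in other glia. The neuron class had 72.7 and 454 CPM, in 457 cells at P1 and 88 at P7, and the level of its own markers was 8336 and 2081 CPM. Sostdc1 was also higher at P7 in macrophages (2.84 and 63.8 CPM), endothelial cells (2.69 and 20.3) and mural cells (7.08 and 61.8). The part of free RNA in these levels was not tested. Glia were 9.52% of the kept cells at P1 and 21.9% at P7. Vwc2 (1.20) and Chrd, the founding chordin (1.13), were the other 2. Fst, which encodes follistatin, was at 18.2 and 11.0 CPM overall and, like Bmp4, at a far higher level in the epithelium at P1, with 284 CPM there against 17.6 at P7. The sum of the 3 members thus did not stand for all antagonists, whose other list had a median of 0.31 against -0.66 for Chrdl1, Grem1 and Nog.

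Of the 19 other ligands only 3 had enough UMIs. Gdf15, a stress-related ligand, was at 0.837 CPM at P1 and 3.03 at P7, with 1.86 (1.5 to 2.23), and Gdf11 and Inhba were near 0, with -0.04 and -0.03. Receptors and co-receptors with enough UMIs were 13 of 16. Of these, 2 were at least 2-fold higher and 1 at least 2-fold lower, against 10.4% and 10.0% of 11780 genes. Bambi, a pseudoreceptor without a kinase domain, was at 41.7 and 154 CPM, with 1.88 (1.83 to 1.93), and in the Ccn3 class at 86.7 and 530 CPM. The co-receptor Tgfbr3 was at 30.5 and 65.0 CPM (1.09), and the activin receptor Acvr2a at 18.3 and 8.81 CPM (-1.06).

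The main receptors of BMP ligands did not move together. The type II receptor Bmpr2 was at 54.6 CPM at P1 and 27.7 at P7, with -0.98 (-1.05 to -0.91). Type I receptor Bmpr1a was at 32.0 and 23.9 CPM, with -0.42 (-0.50 to -0.34), and Acvr1, also a type I receptor, at 20.1 and 37.7, with 0.91 (0.83 to 0.99). The co-receptors Eng, which encodes endoglin, and Neo1, which encodes neogenin, were at 41.0 and 70.6 CPM (0.78) and at 49.3 and 44.7 (-0.14). Among the transducers, Smad5 was at 34.0 and 15.5 CPM (-1.14) and Smad1 at 21.0 and 26.3 (0.33), and Smad5 was the only 1 of 7 past 2-fold. Of 6 target and feedback genes with enough UMIs, 0 were past 2-fold in either direction, against 10.4% higher and 10.0% lower of 11780 genes. Bambi, given above, was counted among the receptors and is not in this list. Id1 was at 260 and 212 CPM over all cells (-0.30). Id3 was at 1090 and 1290 CPM (0.24), Id4 at 96.4 and 119 (0.30) and Id2 at 95.9 and 98.4 (0.04). In the epithelium, where Bmp4 was lower at P7, the Id genes differed from each other. Id1 was at 855 and 416 CPM there and Id2 at 246 and 117, but Id3 at 761 and 858 and Id4 at 320 and 319. Smad7, an inhibitory SMAD, was at 46.6 and 30.7 CPM (-0.60) over all cells.

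The proteases that process BMPs had 6 of 7 genes with enough UMIs. Bmp1, which despite its name is a metalloprotease that cleaves chordin, was at 34.4 CPM at P1 and 74.4 at P7 (1.11), and Furin, which cleaves the ligand precursors, at 54.6 and 86.8 (0.67). For scale, 9 of 12 other secreted signals had enough UMIs. Of them 1, Wnt5a (1.39), was at least 2-fold higher and 1, Fgf10 (-1.85), at least 2-fold lower. Over 11780 genes these shares were 10.4% and 10.0%.

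**Figure D5:**
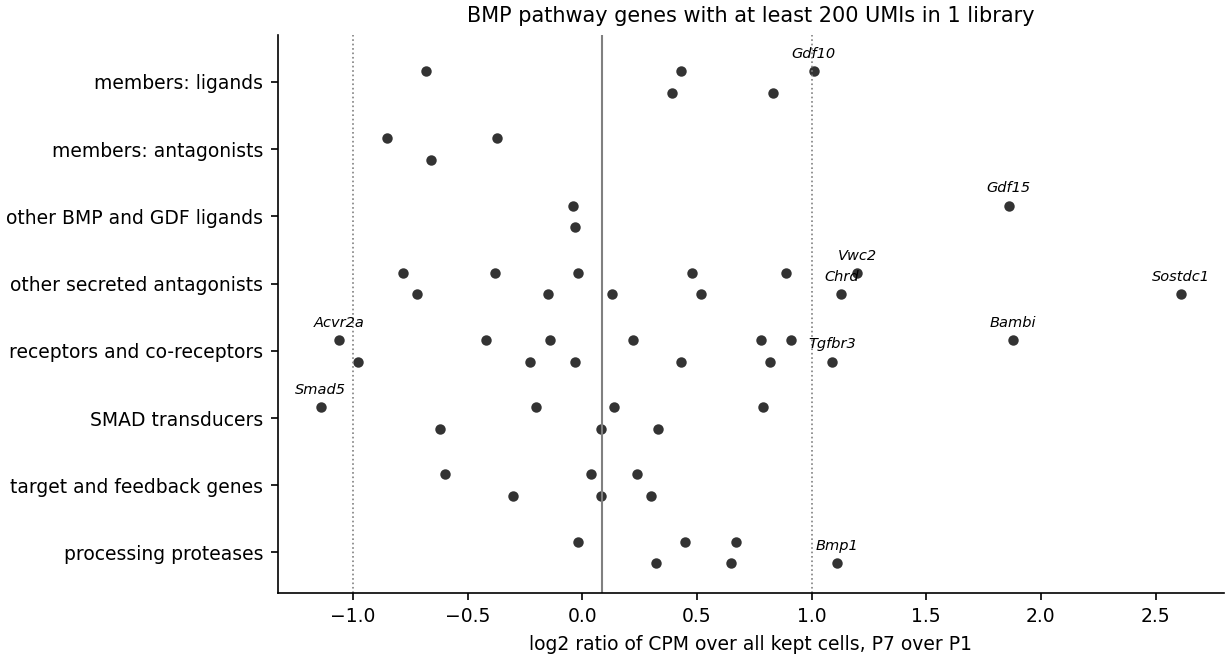
Log2 difference (P7 to P1) over all kept cells of each pathway gene that reached 200 UMIs in the library with more of them, by list; the grey line is the median of all genes, 0.085, and dotted lines mark 2-fold. Ligands lie mostly right and the 3 member antagonists left of the median, while Sostdc1 (2.61) and Bambi (1.88) lie farthest right.

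The genes whose levels were most like each member were ranked by Pearson's r of log2(CPM + 5) over 26 class-by-library groups, which share libraries, depth and free RNA. For Gdf10 these were Runx2 (0.94), Scara5 (0.94) and Clec11a (0.93). They were Emilin1 (0.95), Twist1 (0.95) and Lrp1 (0.94) for Bmp5. For Grem1 they were Nuggc (0.90), Pla2g2a (0.89) and Ltbp2 (0.85), for Bmp7 Calml4 (0.87), B3gnt7 (0.85) and Wdr31 (0.83), and for Chrdl1 Aldh3a1 (0.87), Edil3 (0.85) and Cacybp (0.84). For Bmp4 they were PCOLCE2 (0.83), Chrnb1 (0.81) and Galnt7 (0.81), for Bmp2 Hopx (0.80), Lrrc8a (0.79) and Mettl6 (0.77), and for Nog Dkk3 (0.81), Rab27b (0.81) and Tmem30b (0.80). For Bmp6 the highest was Mcc at 0.71. Neither Bmp6 nor Nog reached 10 CPM in any of these groups, so their values rest on low levels. Among the members themselves the closest pairs were Gdf10 and Grem1 (0.75), Bmp4 and Bmp7 (0.73) and Bmp5 and Gdf10 (0.72).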

How the data were processed

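Gene expression was measured in single cells of the rat cochlear duct, in 1 droplet library (10x 3' chemistry) per age, P1 and P7. The authors made the deposited counts of UMIs per gene and barcode on the rat genome rn6 with Cell Ranger 3.1.0, as the matrix headers say. The submitters' processing notes also name Seurat 3.1.1 and bcl2fastq. A step against doublets or free RNA is not given in the sources used here. The deposited barcodes were 14068 and 14501, with 114285848 and 101264868 UMIs.

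Barcodes were kept if they held 500 to 5000 genes and 500 or more UMIs, of which less than 25% were mitochondrial. Doublets were not removed (Scrublet marked 622 and 775). Each cell was scored per marker list by the mean z of its log counts per 10000, capped at 5. It joined a class at a score of at least 0.5, with at least 2 markers detected and a lead of 0.25 over the next list. Counts were summed per class and library. Intervals were exact Poisson (levels), Clopper-Pearson (shares) and conditional binomial (differences) at 95%, and a count of 0 was taken to allow 3 counts. In thinning to 2000 UMIs, 252 cells at P1 and 711 at P7 were below that depth and left out. Lists were read at a minimum of 200 UMIs, or 50 within a class, in the higher library. Promoter sequences and gene starts were those of RefSeq for GRCr8. Alternatives were a stricter gate (lead 0.5), 24 clusters (10 components, 20 neighbours, resolution 0.8), other cell limits, other totals, doublets removed, a minimum of 20 UMIs and a pseudocount of 1 CPM. Python 3.11.15, numpy 2.4.6, scipy 1.17.1, pandas 2.3.3, scanpy 1.11.5, scikit-learn 1.9.0 and igraph 0.11.9 were used, and the steps were tested on simulated data.

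The named genes were all 9 members, the genes of the pathway lists past 2-fold, the receptors and feedback genes with the highest levels (Bmpr2, Neo1, Eng, Bmpr1a, Id1 to Id4 and Smad7), and the 3 genes most like each member. Smad1, Fst, Gdf11, Inhba, Furin, Acvr1 and the splits by Car3, Cldn5 and tectorial genes were chosen after their values were seen. The members and lists were chosen with earlier results of these data known.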

Additional observations from a re-analysis of the deposited data

Results flagged for a closer look

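Bmp4 and Gdf10 moved in opposite directions between the ages in different classes, and these differences between classes were not tested, since there was 1 library per age. For Bmp4 the log2 difference (P7 to P1) was 2.62 in Otor-high fibrocytes and -2.55 in the cochlear epithelium. For Gdf10 it was 2.53 in Otor-high fibrocytes and -1.13 in the Penk class.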

How the results depend on the processing

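No paired analysis was possible because there was 1 library per age, and for the same reason no library could be left out. Removing doublets or using all deposited barcodes kept all 9 all-cell differences within their counting intervals. The log2 difference of Bmp5 was 0.75 with totals that left out mitochondrial, ribosomal protein and haemoglobin genes. That of Gdf10 was 0.92 with these totals, 1.09 with a mitochondrial limit of 10% and 0.86 as a mean of shares per cell, so its place past 2-fold depends on the scaling. With a minimum of 20 UMIs, 1 of the member ligands, Bmp6, was at least 2-fold lower.

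With clusters in place of gates the lead of the Ccn3 class in Bmp5 at P1 became -2.42 (70 cells at P1) and that of the Sfrp4 class in Gdf10 -2.49 (60 cells). The difference of Gdf10 between the ages in the Sfrp4 class became 2.53 with clusters and -0.35 with the stricter gate, and that of Bmp5 in the Ccn3 class 1.53 with clusters. With the Penk and Sfrp4 classes together, that of Gdf10 was 0.68, against -1.13 in the Penk class alone, that of Bmp2 0.16, against -1.74 in the Penk class, and that of Chrdl1 0.06, against -1.21 in the Sfrp4 class. The cause of these changes was not tested. Clusters gave no value for Grem1 and Nog in the Sfrp4 class at P1, which had no UMI in 60 cells, or for Bmp4 in the Aldh1a2 class, with 42 cells at P1. The depth limits Bmp6, Grem1 and Nog most, since their classes rest on few UMIs. At a pseudocount of 1 CPM, at most 1 of the 3 genes most like a member was shared for 5 members, and 0 for Chrdl1.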
